A study of Homo sapiens with 9 samples.

Results

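The data described here compare A375 cells treated with 10 µM TP-472 for 24 h with A375 cells treated with the vehicle DMSO for the same time. The comparison was defined by the treatment labels and holds 6 of the 9 samples of the series, 3 per group, and it was read across the 16417 of 26475 gene symbols that had enough counts to be tested. The remaining 3 samples, treated with 5 µM TP-472, entered the fit to estimate the spread and were used to test differences between the doses. A375 is an established human melanoma cell line with an activating BRAF mutation, and all libraries come from this 1 line, so the replicates are cultures of the same cells. The study asked which genes respond to TP-472 in melanoma cells. For each library the table holds expected counts per gene, and levels are given below in CPM, counts scaled to a common library size after TMM normalisation. A number in brackets after a gene is its log2 fold change at 10 µM over DMSO from the fit, followed after ± by its standard error where one is given.

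TP-472 is a small molecule that binds the bromodomains of BRD9 and BRD7. Bromodomains recognise acetylated lysines on histones, and both proteins are subunits of SWI/SNF chromatin remodelling complexes, which move nucleosomes and thereby open or close promoters and enhancers. BRD9 belongs to the non-canonical form of the complex and BRD7 to the PBAF form.

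The 6 libraries held 42483091 to 51298130 counts, and ribosomal RNA genes held 8.79% to 10.9% of the DMSO counts and 8.20%, 14.3% and 19.9% in 10 µM replicates 1, 2 and 3 (exact permutation test, two-sided, p = 0.4, where the smallest p possible is 0.1). The first 10 µM library stood apart from the others in a way that followed the transcripts. Transcript length and GC content together accounted for 10.3% of the variance of its deviation from its group mean over 15323 genes, against 4.48% and 5.16% for replicates 2 and 3, whose deviations include it through the mean, and no more than 0.458% for the libraries of the other groups. With the genes in 5 bins by transcript length, the median log2 difference from DMSO in replicate 1 went from 0.40 in the shortest bin to -0.47 in the longest, whereas in replicates 2 and 3 it stayed between -0.05 and 0.04 in all bins. Replicates 2 and 3 had a trend with GC content of their own, with medians against DMSO that went from 0.04 and 0.07 in the bin of lowest GC to -0.12 and -0.14 in the bin of highest GC. The gene fits against DMSO were therefore repeated without 10 µM replicate 1, and it is said below where this ended the call of a named gene. It is also said where this turned or moved by more than 1.5 times the change of a named gene or the median of a list. The A375 identity was checked against lineage markers. SOX10, a transcription factor of the melanocyte lineage, was at 426, 404 and 419.7 CPM in DMSO and 411, 399 and 363 CPM at 10 µM, and MITF, the regulator of pigment genes, at 29.9, 32.7 and 33.3 and 23.3, 35.9 and 28.1 CPM. The pigment enzyme gene TYR was at 0 in all 6 libraries and DCT in 5 of 6, MLANA stayed at or below 0.346 CPM, and PMEL lay at 1.36 to 1.55 CPM in DMSO and 1.43 to 2.87 CPM at 10 µM, so these pigment markers were at or near 0 or low. Of 11 markers of blood, endothelial, epithelial and liver cells, 6 lay under 1 CPM in all 6 libraries and 2 of these at 0, with summed levels of 9.83 to 12.2 CPM in DMSO and 10.5 to 15.3 CPM at 10 µM. The highest of them was KRT14, at up to 8.76 CPM.

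**Figure D1:**
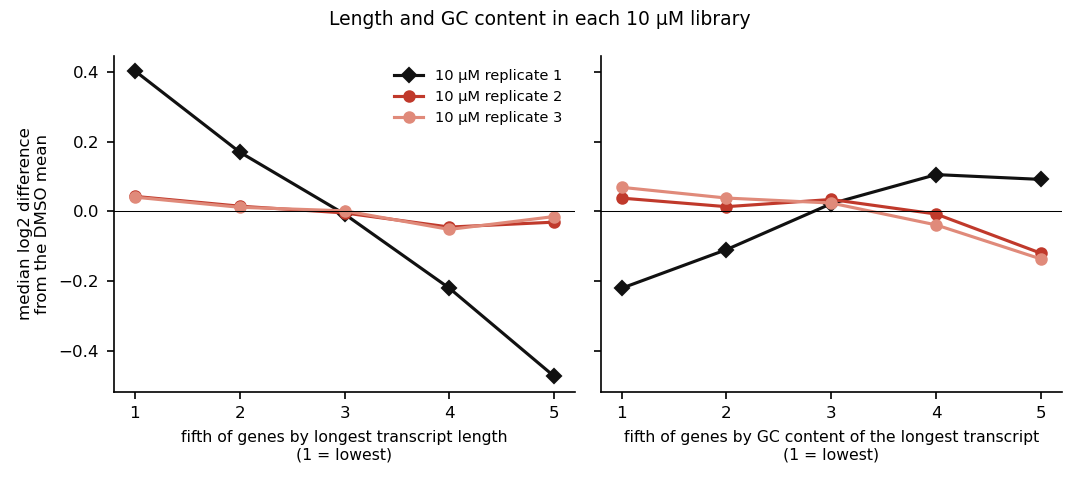
Median log2 difference of each 10 µM library from the DMSO mean, in log2(CPM + 0.5), for the genes tested in 5 bins by length (left) and GC content (right) of the longest annotated transcript. Replicate 1 (black diamonds) falls from 0.40 in the shortest to -0.47 in the longest bin, while replicates 2 and 3 (red circles) stay between -0.05 and 0.04 by length.

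At 10 µM TP-472, 1407 genes (8.57% of those tested) were upregulated and 1730 (10.5%) were downregulated against DMSO. Counts of members called in the gene lists below are to be read beside these shares. A gene was called when it changed 1.5-fold or more with a p from edgeR's quasi-likelihood test that stayed under 0.05 after Benjamini-Hochberg adjustment. The changes were more than 2-fold for 641 upregulated and 755 downregulated genes and more than 8-fold for 113 and 69. Of the called genes, 1379 of the upregulated and 1728 of the downregulated ones had no overlap between the 3 treated and the 3 control libraries. A lack of overlap was common. Of all 16417 genes tested, called or not, 3835 lay above and 4264 below all controls in every treated library. Without 10 µM replicate 1, 1368 genes (8.17% of 16745 tested) were upregulated and 1841 (11.0%) downregulated. Of the genes called with all libraries, 1043 of the upregulated and 1462 of the downregulated ones kept their call, and 0 changed sign. The share of rises and falls differed with the level of the gene in DMSO. Among the 2078 tested genes of at least 100 CPM in DMSO, 2.79% rose and 16.4% fell, whereas among the 2859 genes under 1 CPM 11.5% rose and 1.85% fell, a share that includes genes that passed the filter only through treated libraries. Of all genes tested, 1331 would not have passed the filter in DMSO alone. Transcript length also moved with the calls. In the shortest bin 14.1% of genes rose, or 9.72% without replicate 1, and in the longest bin 15.3% fell, or 11.9% without it. By GC content, 9.70% fell in the lowest bin and 13.6% in the highest, or 8.24% and 17.4% without replicate 1.

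**Figure D2:**
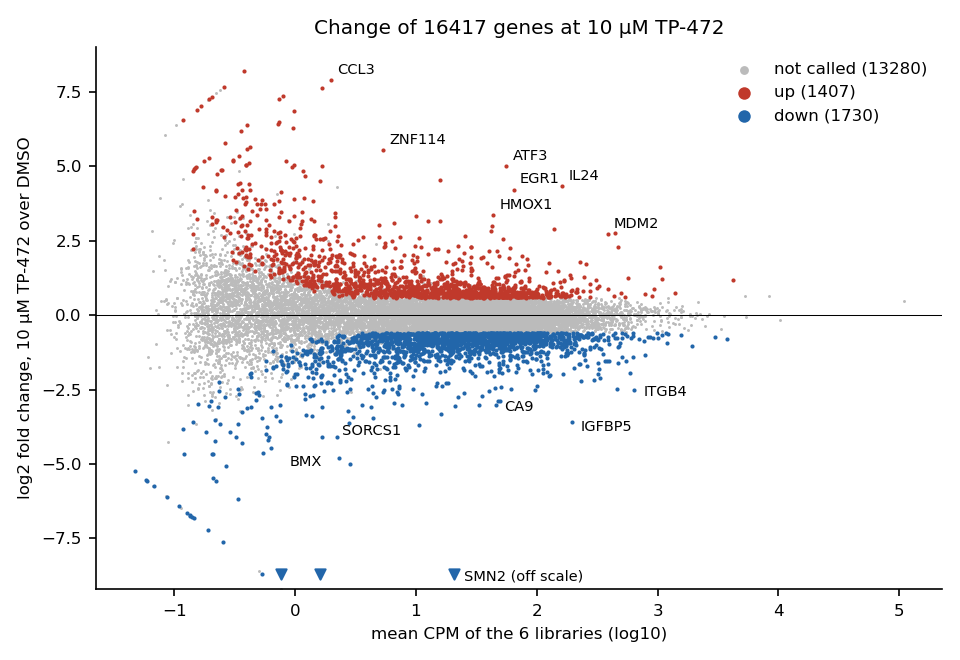
Log2 fold change of 10 µM TP-472 over DMSO against the mean CPM of the 6 libraries (log10 axis) for the 16417 genes tested, with 1407 upregulated genes in red, 1730 downregulated genes in blue and the rest in grey. Triangles mark genes below the axis, among them SMN2, and MDM2, IL24 and ATF3 lie far from 0 at levels where counts are high.

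The 10 largest rises, taken among called genes whose mean reached 1 CPM and whose groups did not overlap, were led by genes that were almost silent in DMSO. CCL3, which encodes a chemokine, had 2 counts over the 3 DMSO libraries and 589 at 10 µM. PRR9, a gene of the epidermal differentiation complex, had 2 and 497 counts. The ratios of these 2 genes rest on 2 counts each in DMSO and are not given. ZNF114, a zinc finger gene on chromosome 19 from 48270102 to 48287608 of GRCh38, stood at 0.161, 0.206 and 0.307 CPM in the 3 DMSO libraries and 11.3, 8.86 and 11.2 CPM in the 10 µM libraries (5.54). CCL3, PRR9, ZNF114, RRAD, ZSCAN4 and PRAMEF12 passed the filter only through treated libraries, where they are high. No p or standard error is therefore given for them. The other rises were those of ATF3, EGR1, ARC, IL24, RRAD and the cleavage-stage genes ZSCAN4 and PRAMEF12, which are described with their groups. RRAD, which encodes a small GTPase of muscle, rose from 0.241, 0.0206 and 0.142 CPM to 2.58, 3.31 and 3.36 CPM (4.49). Of the 10 largest falls, 3 involve near-identical or readthrough genes and are treated at the end. IGFBP5, which encodes a secreted protein that binds insulin-like growth factors, fell from 360.3, 370.0 and 360.1 CPM to 20.1, 35.2 and 34.7 CPM (-3.60 ± 0.19, adjusted p = 1.06e-06). It lies on chromosome 2 from 216672105 to 216695525. BMX, a tyrosine kinase gene, fell from 4.65, 4.42 and 4.44 CPM to 0.165, 0.173 and 0.143 CPM (-4.79). SORCS1, a sorting receptor gene, fell from 20.4, 18.8 and 20.1 CPM to 1.76, 1.31 and 1.55 CPM (-3.68). That the groups did not overlap for these genes follows from the rule that picked them. The remaining falls included those of KLRC2, a receptor gene of natural killer cells with close paralogs (-4.08), C10orf10 (-3.46) and the integrin gene ITGA9 (-4.10).

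Target genes of p53, the transcription factor that halts the cell cycle and triggers apoptosis after damage, rose almost as a whole. Of the 30 members tested, 28 were upregulated and 0 downregulated, with a median log2 fold change of 1.55 against 0.01 over all genes, and the counts were the same without replicate 1. CCNG1 (0.18) and POLH (0.56) were the 2 members not called. The summed level of all 31 genes on the list was 1655, 1642 and 1654 CPM in DMSO and 4974, 4534 and 4557 CPM at 10 µM, so all treated libraries lay above all controls. MDM2, the ubiquitin ligase that degrades p53, lies on chromosome 12 from 68808176 to 68850686 and was at 100.1, 101 and 106 CPM in DMSO and 600.0, 682 and 726 CPM at 10 µM (2.71 ± 0.08, adjusted p = 4.81e-08). CDKN1A, the cyclin-dependent kinase inhibitor p21, rose from 162, 157 and 154 CPM to 899.7, 726 and 699.9 CPM (2.30 ± 0.10). GADD45A, a growth arrest gene, rose from 36.3, 32.2 and 31.3 to 284, 219 and 238 CPM (2.89). In each of these genes the lowest treated library was above 4 times the highest control. BTG2, an antiproliferative gene, and GADD45B, a stress gene, rose as well (2.26 and 1.73).

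The apoptosis machinery did not move as a block. Of 34 genes tested, 7 rose and 3 fell (median 0.12), and 4 of the 7 are also on the p53 list. These were FAS, the death receptor, which rose from 16.4, 19.2 and 17.7 to 59.0, 59.0 and 61.4 CPM (1.75), BBC3, the BH3-only protein PUMA (1.73), TNFRSF10B, a TRAIL receptor (0.64), and BAX, the pore-forming protein of the mitochondrial membrane (1.35). BAX was uneven between the treated libraries, at 345, 229 and 231 CPM against 111, 102 and 102 CPM in DMSO. The remaining rises were those of BAK1 (0.78), PMAIP1 (0.59) and CYCS, which encodes cytochrome c (0.73). The 3 genes that fell were BMF, a BH3-only gene (-1.08), the survival gene BCL2 (-0.65) and the TNF receptor gene TNFRSF1A (-0.70).

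Genes of mitosis, replication and homologous recombination fell. Of 41 mitotic genes, 38 were downregulated and 0 upregulated, with a median log2 fold change of -1.03, and 37 were downregulated without replicate 1. BUB3 (-0.25), CDC20 (-0.42) and PTTG1 (-0.17, or -0.43 without replicate 1) were not called. TOP2A, the topoisomerase that untangles chromosomes, lies on chromosome 17 from 40388516 to 40417950 and fell from 501, 518 and 501 CPM to 125, 149.7 and 158 CPM (-1.81 ± 0.09, adjusted p = 7.41e-07). PLK1, a kinase of mitotic entry, fell from 154, 147 and 148 CPM to 64.2, 65.0 and 59.7 CPM (-1.25). The 3 treated libraries of both genes lay below all controls. NUSAP1, a spindle protein gene, fell (-1.38), but another gene on the same strand covers 62.2% of its exons. Of 46 DNA replication genes, 28 fell and 0 rose (median -0.66), again 28 without replicate 1. The helicase genes MCM5, MCM2 and MCM6, which unwind DNA at origins, fell (-1.203, -1.06 and -1.11), and MCM5 went from 74.5, 71.8 and 73.7 CPM to 33.0, 30.3 and 32.3 CPM. Of 26 genes of homologous recombination and the Fanconi pathway, 12 fell and 0 rose (median -0.67), among them FANCI (-0.90), the exonuclease gene EXO1 (-0.94) and RAD54L (-1.02). In bulk RNA, fewer cells of a type or cell cycle phase and less RNA per cell cannot be told apart.

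Because cell cycle genes moved together, their promoters were searched for the CCAAT box (letters CCAAT) and the CHR element (letters TTTGAA), elements known from many mitotic genes, on both strands of the 300 bases from 250 before to 50 after the RefSeq start site. Neither motif contains the other. Promoters were found for 34 of the 41 mitotic genes, and 79.4% of them held a CCAAT box and 73.5% a CHR element, against 35.7% and 15.4% of all 27305 promoters in the table and 36.7% and 10.2% of the promoters of the genes tested. For the replication genes (40 promoters) the shares were 55.0% and 2.50%. Over all genes down at 10 µM they were 34.6% and 14.7%, and over all genes up 40.3% and 8.92%. Clustered histone genes, which rose, held the motifs in 83.8% and 37.8% of promoters. A high CCAAT share was thus not particular to the mitotic list. Genes of the endoplasmic reticulum chaperones and the unfolded protein response held this box in 85.0% of 20 promoters. The CHR share of the mitotic list was far above the 14.7% of the downregulated genes, which was itself above the 10.2% of the genes tested. The promoters of PLK1 and TOP2A, the mitotic genes whose values are given above, are shown from 250 bases upstream to the base before the start site (RefSeq, GRCh38.p14), PLK1 on the plus strand at chr16:23678639-23678888 and TOP2A on the minus strand at chr17:40417897-40418146. Capitals mark CCAAT boxes and CHR elements on either strand.
PLK1: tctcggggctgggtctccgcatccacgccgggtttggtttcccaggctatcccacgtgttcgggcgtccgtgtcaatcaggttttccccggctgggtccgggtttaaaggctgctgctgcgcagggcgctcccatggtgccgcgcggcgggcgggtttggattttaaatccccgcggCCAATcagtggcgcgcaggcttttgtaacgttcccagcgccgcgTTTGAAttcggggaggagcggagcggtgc
TOP2A: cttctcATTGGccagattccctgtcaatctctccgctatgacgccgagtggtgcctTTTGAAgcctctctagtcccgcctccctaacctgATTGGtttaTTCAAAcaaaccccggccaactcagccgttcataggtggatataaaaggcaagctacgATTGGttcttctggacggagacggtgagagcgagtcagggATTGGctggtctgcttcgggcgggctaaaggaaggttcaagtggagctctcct
PLK1 has 1 CCAAT box, at position -73, and 1 CHR element, at position -29. TOP2A has 4 CCAAT boxes, at -244, -160, -93 and -53, and 2 CHR elements, at -194 and -151. Positions give the first base of the match relative to the start site. A match of letters is a description of the sequence and not evidence of binding.

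Clustered histone genes rose while replication genes fell. The summed level of all 73 genes on the list was 104, 97.0 and 102 CPM in DMSO and 534, 380 and 367 CPM at 10 µM, with every treated library above every control. Of the 43 genes tested, 25 rose and 0 fell (median 1.65). Of these 43, 17 would not have passed the filter in DMSO alone. The count and the median therefore describe only the genes that were tested. Genes that passed only through treated libraries, where they are high, can raise both. In log2(CPM + 0.5), the median differences from DMSO were 0.99, 1.05 and 1.00 in 10 µM replicates 1, 2 and 3. Without replicate 1, 26 rose and 1, HIST1H4J, fell. HIST2H2BE, an H2B gene on chromosome 1 from 149884459 to 149886652, was at 4.81, 5.31 and 6.29 CPM in DMSO and 28.03, 25.1 and 22.7 CPM at 10 µM (2.21 ± 0.13, adjusted p = 1.94e-06). HIST1H2AC, an H2A gene, rose from 3.96, 3.93 and 4.30 CPM to 14.5, 13.9 and 15.4 CPM (1.84). HIST2H2AA4 (2.30) shares its sequence with HIST2H2AA3, and the estimates for such copies are uncertain. Most histone mRNAs end without a poly(A) tail, and whether the libraries were made with oligo-dT beads, as the methods say, or by depletion of ribosomal RNA, as the design text says, could not be settled, and the part of this in the result was not tested. Of 37 histone promoters found, 83.8% held a CCAAT box and 59.5% a TATA box (letters TATAAA), against 35.7% of all promoters and 3264 of all 27305. The promoter of HIST2H2BE, the histone gene with the smallest p, is shown for the same 250 bases (RefSeq H2BC21, GRCh38.p14, minus strand, chr1:149886683-149886932), with CCAAT boxes and TATA boxes in capitals.
HIST2H2BE: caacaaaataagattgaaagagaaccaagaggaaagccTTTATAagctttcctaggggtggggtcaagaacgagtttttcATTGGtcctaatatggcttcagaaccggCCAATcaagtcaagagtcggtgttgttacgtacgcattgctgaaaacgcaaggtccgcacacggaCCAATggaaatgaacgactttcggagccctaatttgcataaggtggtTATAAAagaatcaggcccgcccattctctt
The CCAAT boxes lie at -170, -142 and -77 and the TATA boxes at -212 and -30.

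Immediate early genes, which code for transcription factors induced within minutes by growth factors or stress, were raised at 24 h. Of 27 members, 14 rose and 0 fell (median 0.91), and 13 rose without replicate 1. ATF3, a stress-induced repressor, was at 3.64, 3.66 and 2.79 CPM in DMSO and 116, 101 and 108 CPM at 10 µM (5.004 ± 0.14, adjusted p = 3.87e-08). EGR1, a zinc finger factor, rose from 6.14, 7.76 and 5.91 CPM to 121, 126 and 120.2 CPM (4.21 ± 0.12). ARC, an activity-regulated gene of neurons, rose from 1.65, 1.01 and 1.30 CPM to 34.9, 26.0 and 30.6 CPM (4.53). All treated libraries of these genes exceeded the highest control by more than 10 times. NR4A1, an orphan nuclear receptor gene, rose (1.99), and it too did not overlap between the groups.

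The integrated stress response, in which ATF4 induces genes of amino acid supply and of recovery from translational arrest, was raised in part. Of 27 genes, 11 rose and 3 fell (median 0.46, or 0.31 without replicate 1). DDIT3, the factor CHOP, went from 10.4, 8.74 and 9.86 CPM to 102, 60.2 and 66.1 CPM (2.98 ± 0.19, adjusted p = 3.42e-06), and genes on the opposite strand cover 31.6% of its exons. CHAC1, which degrades glutathione, went from 3.46, 2.45 and 3.59 CPM to 36.6, 25.2 and 23.8 CPM (3.17). PPP1R15A, which returns translation to normal by directing a phosphatase to eIF2, went from 59.4, 58.3 and 56.1 to 217, 178 and 193 CPM (1.76). In DDIT3, CHAC1 and PPP1R15A replicate 1 was the highest of the treated libraries, and all 3 treated libraries lay above all controls. The 3 members that fell were VLDLR, a lipoprotein receptor gene (-1.10), DDIT4, an inhibitor of mTORC1 (-0.61), and SLC7A1, an arginine transporter gene (-0.64), of which SLC7A1 lost its call without replicate 1 (-0.49). Of 21 genes of the endoplasmic reticulum chaperones and the unfolded protein response, 4 rose and 0 fell (median 0.21). They were DNAJB9 (1.03), HERPUD1 (0.80), XBP1 (0.71) and SDF2L1, whose 0.59 dropped to 0.26 and lost its call without replicate 1. Among 18 cytosolic aminoacyl-tRNA synthetase genes, only SARS rose (0.72) and 0 fell (median 0.15). Among 18 heat shock genes, HSPA4L alone rose (0.72) and 0 fell (median 0.13). Without replicate 1 the median was 0.01 and HSPB1 also fell, and HSP90AA1 (0.45) did not reach the fold limit.

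Of 26 target genes of NRF2, the factor of the oxidative stress response, 7 rose and 3 fell (median 0.20), and without replicate 1 the counts were 6 and 5, with PRDX1 (0.62, then 0.39) no longer up and TKT and AKR1C1 also down. HMOX1, the heme oxygenase gene on chromosome 22 from 35380361 to 35394214, was at 7.95, 7.82 and 7.59 CPM in DMSO and 96.7, 76.5 and 65.9 CPM at 10 µM (3.36 ± 0.15, adjusted p = 4.84e-07). The lowest treated library was above 8 times the highest control. OSGIN1 (1.57) and GCLM (0.88), which encodes a subunit of glutathione synthesis, also rose, as did the ferritin genes FTH1 (1.19) and FTL (0.86), which store iron. Genes on the opposite strand cover 62.4% of the exons of FTH1. ABCC3, a drug transporter gene, fell from 76.8, 76.9 and 80.8 CPM to 26.1, 25.4 and 29.02 CPM (-1.54), and the aldo-keto reductase genes AKR1C2 and AKR1C3 fell (-0.83 and -0.68). Only 2 of 10 metallothionein genes were tested, MT1X (-0.36) and MT2A (0.18), and neither was called. The sign of MT2A turned without replicate 1 (-0.050) and with the length and GC trend removed (-0.080), while MT1X was called down without replicate 1 (-0.62).

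Genes of the hypoxia response and glycolysis fell, with 18 of 34 downregulated, 0 upregulated and a median of -0.61, or 20 downregulated without replicate 1. CA9, the carbonic anhydrase induced through HIF, lies on chromosome 9 from 35673856 to 35681159 and fell from 79.5, 81.5 and 83.5 CPM to 9.73, 8.77 and 11.7 CPM (-3.02 ± 0.11, adjusted p = 1.61e-07), with 38.5% of its exons covered by genes on the opposite strand. NDRG1, a stress gene induced in hypoxia, fell from 511, 514 and 501 CPM to 129.6, 125 and 129 CPM (-1.99), and PFKFB4, a regulator of glycolysis, from 174, 179 and 184 CPM to 71.2, 63.8 and 64.6 CPM (-1.43). No treated library of these 3 genes reached any control. Of 32 genes of cholesterol and fatty acid synthesis, 8 fell and 2 rose (median -0.30), or 6 down and 1 up without replicate 1. SREBF1, the transcription factor of fatty acid synthesis, fell from 163, 158 and 164 CPM to 54.3, 53.3 and 58.4 CPM (-1.55 ± 0.07). SCD, the desaturase that makes monounsaturated fatty acids, fell from 473, 491 and 487 CPM to 135, 177 and 164 CPM (-1.61). The 2 genes that rose were IDI1 (0.63) and PMVK (0.74), both of the mevalonate pathway, and PMVK lost its call without replicate 1. Of 42 lysosome and autophagy genes, 7 rose (16.7%) and 5 fell (11.9%), with a median of 0.02. Over all genes 8.57% rose and 10.5% fell. Without replicate 1 the counts were 5 and 6 and the median -0.02, with CTSL and ATP6V0D1 no longer up and TFEB also down. The autophagy receptor gene SQSTM1 rose from 677, 648 and 639 CPM to 1795, 1374 and 1401 CPM (1.22), and MAP1LC3B and GABARAPL1, which build the autophagosome membrane, rose (0.75 and 0.74). The 5 genes that fell were the cathepsin genes CTSB (-0.74), CTSF (-0.73), CTSS (-1.14) and CTSZ (-0.79) and the cholesterol carrier gene NPC2 (-0.72).

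**Figure D3:**
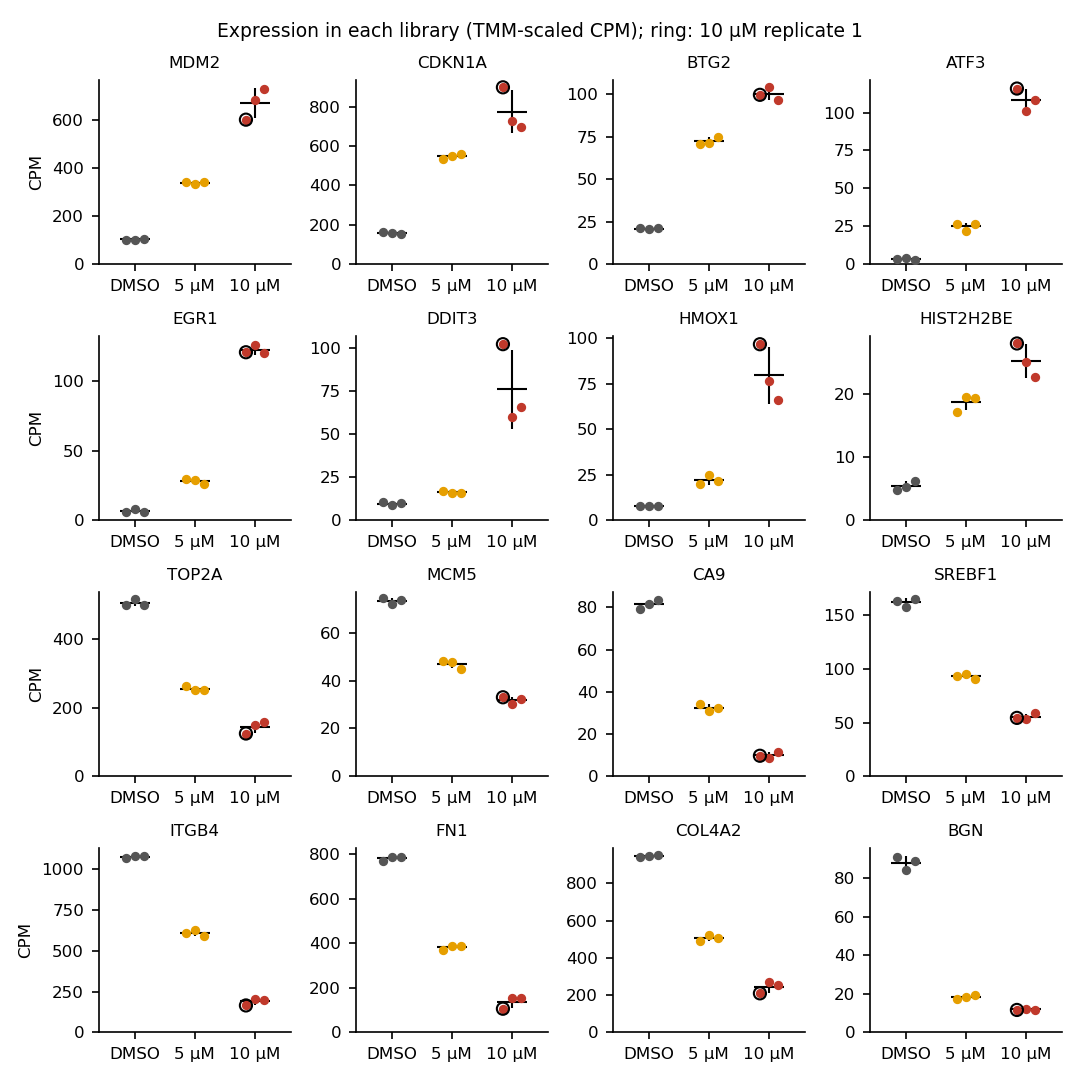
Expression of 16 genes in each library, in CPM on axes that start at 0, with the mean and SD of 3 libraries per group in black and 10 µM replicate 1 ringed. In every panel the 3 libraries at 10 µM do not overlap the controls, and MDM2 goes from 100.1, 101 and 106 CPM in DMSO to 600.0, 682 and 726 CPM.

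The extracellular matrix was covered by 6 lists, from structural proteins through the enzymes that process them to the receptors that bind them. Of 32 collagen genes tested, 13 fell and 1 rose (median -0.57). The summed level of all 44 collagen genes was 3293, 3323 and 3295 CPM in DMSO and 1033, 1218 and 1222 CPM at 10 µM, with no overlap. COL4A2, a chain of the basement membrane collagen, fell from 939, 946 and 949 CPM to 209.6, 268 and 254 CPM (-1.95 ± 0.09, adjusted p = 5.83e-07). COL6A2 and COL6A1, chains of the beaded filament collagen VI, fell (-1.92 and -1.34), and COL13A1, a transmembrane collagen, fell from 88.1, 89.2 and 86.4 CPM to 28.01, 26.3 and 25.6 CPM (-1.72). COL5A3 rose, from 3.54, 3.62 and 3.85 CPM to 5.60, 9.73 and 7.97 CPM (1.08). Of 11 laminin genes, which build the basement membrane, 5 fell and 1 rose (median -0.44). LAMA5, LAMB1 and LAMC1 fell (-1.55, -1.35 and -0.87), and in LAMB1 replicate 1 was the lowest library, at 338, 494 and 504 CPM against 1125, 1157 and 1127 CPM in DMSO. LAMA2 and LAMA4 fell (-0.74 and -0.63) with all libraries and lost their calls without replicate 1 (-0.51 and -0.41). LAMC3 rose (1.64) from under 1 CPM in DMSO.

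Matrix glycoproteins and proteoglycans fell in 21 of 48 genes and rose in 1, GPC1 (0.83), with a median of -0.50. BGN, the proteoglycan biglycan, was at 91.1, 84.2 and 88.7 CPM in DMSO and 11.7, 12.4 and 11.9 CPM at 10 µM (-2.88 ± 0.08, adjusted p = 3.87e-08). FN1, which encodes fibronectin, went from 769.7, 788 and 789 to 106, 156 and 154 CPM (-2.49), and TGFBI, an adhesion protein of the matrix, from 550.5, 541 and 548 to 134, 125 and 116 CPM (-2.13). Each of these genes stood below all controls in all treated libraries. Of 22 genes for collagen processing and crosslinking, 10 fell and 1 rose, TLL2 (1.19), with a median of -0.82. The lysyl oxidase genes LOXL3 and LOXL4, whose products crosslink collagen and elastin, fell (-1.97 and -1.56), and the lysyl hydroxylase gene PLOD1 fell from 470.0, 466 and 473 CPM to 223, 216 and 203 CPM (-1.14). Matrix metallopeptidases and their inhibitors moved both ways, with 4 of 22 up and 6 down and a median of 0.13 that turned to -0.12 without replicate 1. Of the 22, 3 would not have passed the filter in DMSO alone. MMP2, a gelatinase, fell from 729, 742 and 767 CPM to 284, 289.9 and 262 CPM (-1.42), MMP9, the other gelatinase, from 43.1, 43.7 and 43.0 CPM to 8.51, 5.21 and 7.48 CPM (-2.62), and MMP14 and MMP11 (-0.89 and -1.60). MMP1, the interstitial collagenase, rose from 6.94, 7.43 and 8.01 CPM to 37.7, 34.2 and 40.3 CPM (2.33), and the stromelysins MMP3 and MMP10 rose (1.92 and 2.65) from under 1 CPM in DMSO. The inhibitor genes split, with TIMP2 (-1.15) and TIMP3 (-0.59) lower and TIMP1 (0.76) higher, and the calls of TIMP1 and TIMP3 were lost without replicate 1 (0.51 and -0.58).

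Of 24 integrin genes, the receptors for these matrix proteins, 13 fell and 3 rose (median -0.76), or 11 fell and 1, ITGA2, rose with a median of -0.60 without replicate 1. ITGB4, the partner of laminin receptors in hemidesmosomes, fell from 1068, 1078 and 1079.7 CPM to 165, 206 and 198 CPM (-2.50 ± 0.09, adjusted p = 1.16e-07). ITGB5, a vitronectin receptor chain, fell from 358, 351 and 345 CPM to 156, 154 and 154 CPM (-1.18), and ITGA5, the fibronectin receptor chain, from 360.4, 370.0 and 378 CPM to 202, 210.4 and 201 CPM (-0.85). The treated libraries of all 3 genes lay below the controls. The genes that rose were the leukocyte integrins ITGAE (0.60), ITGAM (3.31) and ITGAX (0.95). All 3 lost their calls without replicate 1, and ITGAM, whose log2 fold change dropped to 2.06, was at 1.43, 0.346 and 0.204 CPM in the treated libraries and between 0 and 0.121 CPM in DMSO. ITGAM is among the 4 of 24 integrin genes that would not have passed the filter in DMSO alone. The count of rises therefore describes only the genes that were tested.

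Cytokine, interferon and antigen presentation genes were read against 8.57% up and 10.5% down over all genes. Of 26 tested NF-kB feedback, chemokine and cytokine genes, 4 rose (15.4%) and 7 fell (26.9%), with a median of -0.30. IL24, an interleukin gene on chromosome 1 from 206897443 to 206904139, rose from 16.0, 16.3 and 13.8 CPM to 366, 288 and 278 CPM (4.34 ± 0.13, adjusted p = 3.87e-08). IL6 and IL11 rose (1.64 and 1.32), whereas NFKBIE, an inhibitor of NF-kB, rose (0.69) and lost its call without replicate 1 (0.39). TNFAIP2, a gene induced by TNF, fell from 138, 136 and 134 CPM to 38.1, 37.1 and 39.6 CPM (-1.83), the neutrophil chemokine gene CXCL8 from 375.5, 380.3 and 378 CPM to 177, 175 and 183 CPM (-1.08), and the monocyte chemokine gene CCL2 (-1.78). Of 35 interferon-stimulated genes, 6 fell (17.1%) and 1 rose, ISG15 (0.71), with a median of -0.15, and without replicate 1 the counts were 8 and 0. The antiviral genes IFI44 and OAS3 fell (-0.90 and -0.94), and IFITM1 fell to 0.847, 0.615 and 0.530 CPM. Of 16 genes of MHC class I presentation, TAPBP (-0.85) and ERAP1 (-0.94) fell and 0 rose (median -0.13, or -0.28 without replicate 1), and TAP1 (0.35) did not reach the fold limit.

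In the TGF-beta and BMP pathway 7 of 27 genes fell and 4 rose (median -0.14), or 6 and 3 with a median of -0.05 without replicate 1, when TGFB3 and INHBA lost their calls. The rises included those of ID2, a BMP-induced inhibitor of transcription, from 1.59, 1.26 and 1.30 CPM to 15.9, 10.1 and 9.31 CPM (3.08), ID3 (0.93) and INHBA (0.76). Of 24 YAP and TEAD target and pathway genes, 4 rose and 4 fell (median -0.28, or -0.16 without replicate 1). CTGF, a matricellular gene, rose from 35.7, 34.9 and 35.4 CPM to 129, 128 and 134 CPM (1.88), CYR61 from 82.6, 77.5 and 74.6 CPM to 238, 218 and 206 CPM (1.495) and ANKRD1 (1.56), and the kinase gene NUAK2 rose (0.85). These 3 leading targets did not overlap between the groups, and the genes that fell were the coactivator gene WWTR1, which encodes TAZ (-1.07), TEAD2 (-0.92), AMOTL1 (-0.98) and ARHGEF17 (-0.98). Of 27 contractile actin and SRF target genes, ACTA2 (1.62) and FHL2 (1.44) rose and 3 genes fell, VCL (-1.01) and FHL1 (-0.89) among them. The shares, 7.41% up and 11.1% down, were near those of all genes, 8.57% and 10.5%. The median was -0.11, and 2 genes fell without replicate 1. Among 20 genes of ERK pathway output, which the BRAF mutation drives in this line, 2 rose (10.0%) and 4 fell (20.0%). Their median was -0.28, or -0.17 without replicate 1. EGR1, which is also an immediate early gene, and the phosphatase gene DUSP5 (0.74) rose, and the feedback genes SPRY1 (-1.36) and SPRY4 (-0.86) and the factors ETV4 (-0.79) and ETV1 (-0.70) fell. ETV1 lost its call without replicate 1 (-0.54).

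Markers of cell state covered the melanocyte lineage and dedifferentiation. Of 19 tested melanocyte lineage genes, 4 fell (21.1%, against 10.5% of all genes) and 0 rose (median -0.13). They included ERBB3, a neuregulin receptor of the lineage, from 213, 219 and 215 CPM to 104, 111 and 106 CPM (-1.01), S100A1 (-1.56) and the melanosome transport gene RAB27A (-1.02). MITF (-0.13, adjusted p = 0.512, or -0.00046 without replicate 1) and SOX10 (-0.09, adjusted p = 0.333) were not called, and the sign of SOX10 turned when the length and GC trend was removed (0.043). Both overlapped between the groups. Of 16 mesenchymal and neural crest genes that mark dedifferentiated melanoma cells, 8 fell and 1 rose, SNAI2 (1.98), with a median of -0.69. SOX2 and SOX9, stem cell and neural crest factors, fell (-1.83 and -1.199), VIM, the mesenchymal intermediate filament, from 3698, 3662 and 3800.2 CPM to 2569, 2119.5 and 2033 CPM (-0.73), and the nerve growth factor receptor gene NGFR (-0.81). ZEB1 fell (-0.67) with all libraries and lost its call without replicate 1 (-0.41), and the receptor kinase gene AXL stood at -0.25, under the fold limit.

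The targets of TP-472 were not called. BRD9 was at 38.6, 37.5 and 36.6 CPM in DMSO and 51.8, 42.5 and 41.9 CPM at 10 µM (0.27 ± 0.11, adjusted p = 0.0763), or 0.16 without replicate 1. BRD7 was at 87.7, 88.0 and 88.4 CPM and 68.9, 86.5 and 75.5 CPM (-0.19 ± 0.09, adjusted p = 0.111), or -0.12 without replicate 1, and genes on the opposite strand cover 42.4% of its exons. The groups did not overlap for either gene, though neither was called. An inhibitor of a protein need not change its mRNA, so these values do not check the treatment. Of 27 tested SWI/SNF subunit genes, 3 fell (11.1%, near the 10.5% of all genes) and 0 rose (median -0.19). SMARCC2, which encodes the core subunit BAF170 and lies on chromosome 12 from 56162983 to 56189567, fell from 174, 170.3 and 168 CPM to 86.6, 94.5 and 89.4 CPM (-0.92 ± 0.06, adjusted p = 6.18e-06). ARID1B (-0.60) and ARID2 (-0.70) lost their calls without replicate 1, where their log2 fold changes were -0.44 and -0.46. The treated libraries of SMARCC2 lay close together below all controls, whereas ARID2 was uneven, at 19.2, 36.9 and 35.3 CPM.

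Cleavage-stage genes, which the factor DUX4 switches on in the early embryo and which are silent in most adult cells, were detected at low levels. The summed level of the 35 genes on the list other than CCNA1, which alone among those tested exceeded 1 CPM in DMSO, was 1.47, 1.52 and 1.35 CPM in DMSO and 23.0, 20.9 and 18.4 CPM at 10 µM, with no overlap. Of the 17 genes tested, 13 rose and 0 fell, but 15 of the 17 would not have passed the filter in DMSO alone, so the count is no measure of the list. ZSCAN4, a gene of the zygote, was at 0.141, 0.0617 and 0.0946 CPM in DMSO and 4.73, 2.71 and 2.26 CPM at 10 µM (4.99), and PRAMEF12 was at 0.121, 0.103 and 0 CPM and 2.40, 2.08 and 2.34 CPM. CCNA1, a germ cell cyclin gene, rose from 8.13, 8.74 and 8.37 CPM to 19.0, 17.3 and 14.9 CPM (1.02). Many of these genes have near-identical copies, among which estimated counts can be split. Cancer-testis antigen genes summed to 1989, 1925 and 1907 CPM in DMSO and 2760, 2109 and 2091 CPM at 10 µM. Of 41 tested, 7 rose, from the MAGE, PAGE and XAGE families, and 0 fell, and without replicate 1 the counts were 5 (MAGEA2, MAGEA9, MAGEB2, MAGEC1 and PAGE1) and 2 (the near-identical CTAG1A and CTAG1B), and 10 of the 41 would not have passed the filter in DMSO alone.

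Among genes of respiration and protein synthesis, the oxidative phosphorylation and ribosomal protein lists differed between replicate 1 and the other treated libraries. Of 77 genes of nuclear-encoded oxidative phosphorylation subunits, 20 rose and 1 fell with a median of 0.44, but without replicate 1 the counts were 1 (ATP5I) and 1 (UQCRC2, which fell in both) and the median 0.19. Their summed level was 7626, 7375 and 7174 CPM in DMSO and 11810, 7896 and 8180 CPM in 10 µM replicates 1, 2 and 3. COX6A1, a subunit of cytochrome c oxidase, shows the pattern at 325, 196 and 218 CPM in these libraries against 148, 141 and 131 CPM in DMSO. Ribosomal protein genes summed to 66463, 64252 and 62758 CPM in DMSO and to 90990.0, 56427 and 57169 CPM at 10 µM, so replicate 1 lay above and replicates 2 and 3 below all controls. Of 79 such genes, RPS19 (0.65) and RPS26 (0.61) were called up and 0 down (median 0.14), and without replicate 1 the median was -0.13, 0 were up and RPL3 was down (-0.61), while RPS19 and RPS26 stood at 0.34 and 0.30. In the ribosome biogenesis list 4 of 38 genes rose (10.5%, near the 8.57% of all genes) and 0 fell. The median was 0.30, or 0.26 without replicate 1. The 4 were NOP2 (0.62), NOP16 (0.59), RRP9 (0.77) and LYAR (0.62). Without replicate 1 none of these 4 kept its call (RRP9 0.49 and LYAR 0.40) while UTP15 and WDR43 were called up. Of 37 proteasome subunit genes (median 0.39, or 0.26 without replicate 1), PSMC2 (0.64), PSMC4 (0.77) and PSMD11 (0.61) rose, 8.11% against 8.57% of all genes, and 0 fell. Of these rises, that of PSMC4 alone kept its call without replicate 1. Replicate 1 lay apart in this list too, with median differences from DMSO of 0.65, 0.23 and 0.25 in replicates 1, 2 and 3, in log2(CPM + 0.5). Of 42 splicing factor genes (median -0.14), SRSF8 rose (0.76) and HNRNPA1 fell (-0.68).

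**Figure D4:**
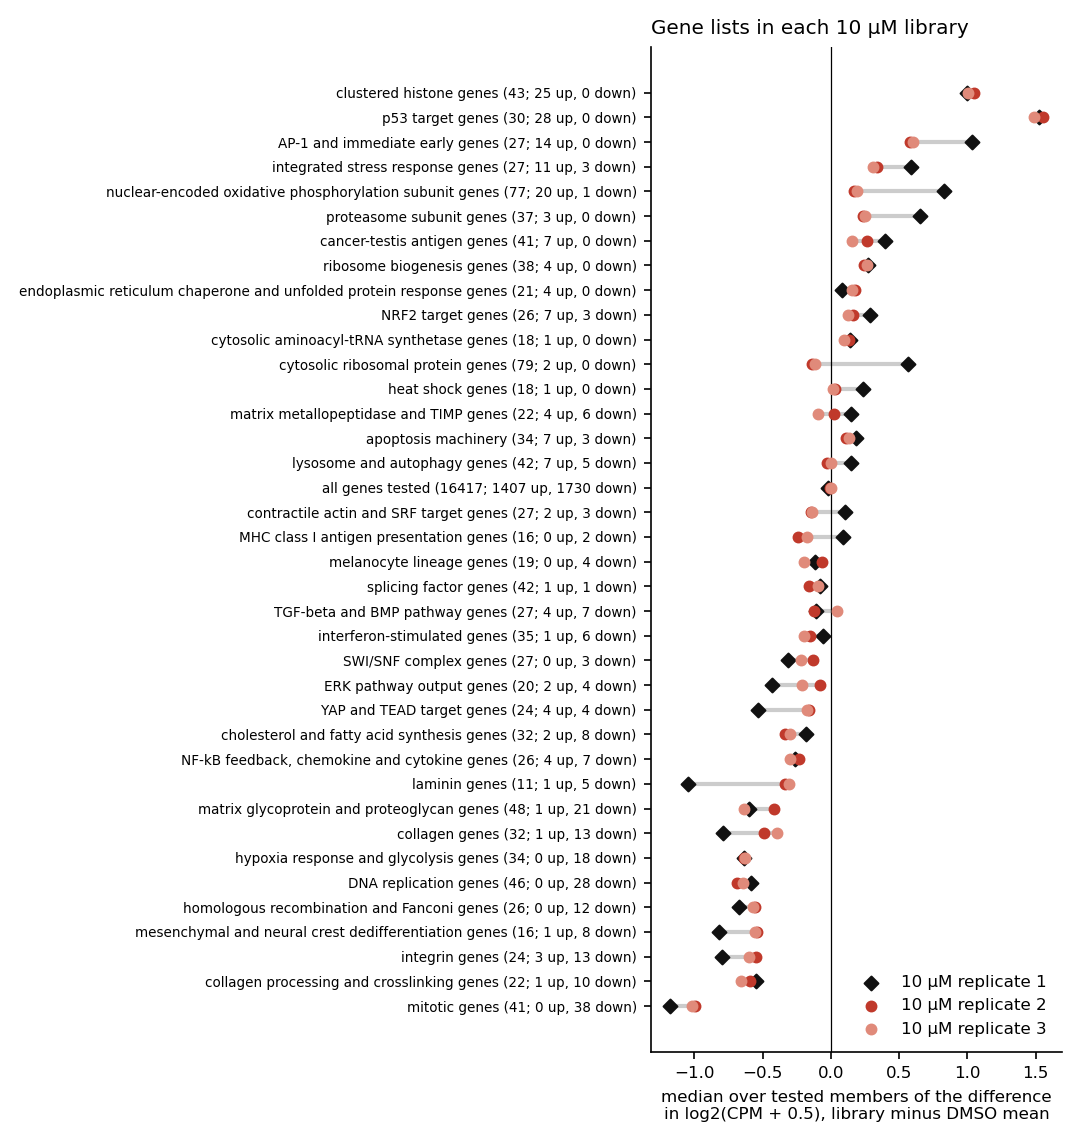
Median over the tested members of the gene lists of the difference in log2(CPM + 0.5) between each 10 µM library and the DMSO mean, with the number of genes tested and called up or down in brackets and lists ordered by their median fold change in the fit. The lists of cleavage-stage genes, metallothionein genes and markers of other cell types are not shown. In the p53 target and mitotic genes all 3 libraries lie together, at 1.49 to 1.56 and at -1.18 to -0.99, while in the ribosomal protein, oxidative phosphorylation and laminin genes replicate 1 (black diamond) lies apart.

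Some large changes concern genes that share sequence. SMN1 on chromosome 5 from 70925030 to 70953942 and SMN2 from 70049612 to 70078522 encode the same protein from near-identical copies. SMN2 was at 28.9, 51.9 and 42.6 CPM in DMSO and at 0 in all 10 µM libraries, while SMN1 was at 64.6, 44.5 and 52.7 CPM and 122, 119 and 113 CPM. In the 5 µM libraries SMN2 was at 62.9, 6.93 and 29.4 CPM, which shows how the split between the copies varied within a group. Summed over both, the level was 93.5, 96.5 and 95.3 CPM in DMSO and 122, 119 and 113 CPM at 10 µM, and the sum is the value that does not depend on the split. The other large falls of this kind, BLOC1S5-TXNDC5 and RPL17-C18orf32, are readthrough transcripts whose exons lie wholly in other genes. TXNDC5 with its readthrough summed to 205, 211 and 210 CPM in DMSO and 153, 169 and 169 CPM at 10 µM, and RPL17 with its readthrough to 731, 735 and 693 CPM and 960, 590 and 596 CPM. The libraries were described as strand-specific, but the sources do not say whether reads were counted by strand, so reads of genes that overlap on opposite strands may be mixed. Among the genes named above with 30% or more of their exons so covered, CCL3 (74.6%), DDIT4 (41.2%) and ACTA2 (30.1%) add to those already marked, and smaller overlaps were not listed. Another gene on the same strand covers 54.4% of the exons of NOP2 and 32.5% of those of IFITM1.

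Tested directly against 5 µM, 10 µM gave higher expression for 233 genes (1.42% of those tested) and lower expression for 425 genes (2.59%). Without 10 µM replicate 1, 320 genes were higher and 548 lower. The differences between the doses given below for single genes and lists were not checked without this library. Both doses were compared with the same DMSO libraries, so only this direct test is used for a difference between them. Of the 27 integrated stress response genes, 10 were higher at 10 µM than at 5 µM and 0 lower. DDIT3 was at 17.0, 15.6 and 15.8 CPM at 5 µM, and its log2 difference between the doses was 2.24 (adjusted p = 0.000128). CHAC1 was at 3.81, 4.98 and 5.28 CPM at 5 µM, a difference of 2.604 (adjusted p = 0.000128), and in both genes all 10 µM libraries lay above all 5 µM libraries. Of the 27 immediate early genes, 12 were higher at 10 µM and 0 lower, with EGR1 at 29.5, 29.03 and 25.7 CPM at 5 µM (2.12, adjusted p = 1.44e-05). Of the 41 mitotic genes, 17 were lower and 0 higher, and PLK1 was at 117, 116 and 113 CPM at 5 µM (-0.87, adjusted p = 9.75e-05). CTGF, the YAP target, was at 52.9, 48.9 and 52.1 CPM at 5 µM (1.34, adjusted p = 1.44e-05). In the matrix, 9 of 32 collagen and 6 of 24 integrin genes were lower at 10 µM than at 5 µM and 0 higher, 10 of 48 glycoprotein genes were lower and 1 higher, and of 22 matrix metallopeptidase and inhibitor genes 3 were lower and 2 higher. The counts of different lists were not compared with each other by a test. Of the 30 p53 targets, 7 were higher at 10 µM and 0 lower. Among the 7 were MDM2, at 342, 332 and 342 CPM at 5 µM (0.98, adjusted p = 0.000115), and GADD45A (1.31, adjusted p = 0.000115). BAX, at 240.2, 226 and 218 CPM at 5 µM, was not called (0.23, adjusted p = 0.347). Hypoxia genes were lower in 3 of 34, and CA9 was at 34.4, 30.9 and 32.2 CPM at 5 µM (-1.69, adjusted p = 4.06e-05). ITGA9 had reached 0.131, 0.291 and 0.226 CPM at 5 µM, and its difference between the doses was -0.25 ± 0.43 (adjusted p = 0.76).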

How the data were processed

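RNA from A375 cells was sequenced in 3 libraries per treatment. The authors deposited 1 table that holds, for each gene symbol, expected counts with no scaling to library size, and the submitters' processing notes name Bowtie2 2.1.0, RSEM 1.2.15 and hg38. Expected counts were rounded to whole numbers. Genes were kept by filterByExpr (0.208 CPM in 3 libraries and a total count of 15), scaled with TMM factors and tested with edgeR 4.0.16 in R 4.3.3, by the quasi-likelihood test in 1 fit of all 9 libraries with Benjamini-Hochberg adjustment over all genes tested. Calls required a 1.5-fold change and an adjusted p under 0.05. A standard error is the absolute log2 fold change over the square root of F. Other tools were DESeq2 1.42.0 as an alternative test and Python 3.11.15 (pandas 2.3.3, numpy 2.4.6, scipy 1.17.1, matplotlib 3.10.9). No set test was run, and lists are described by counts and medians. The scripts were tested on simulated counts.

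Genes were named by a rule: the 10 largest rises and falls among called genes that reached a mean of 1 CPM without overlap, the 3 smallest p per list in 40 lists, the targets BRD9 and BRD7, and 7 genes chosen by the study. Genes beyond it were named after their values were seen, and some genes are not reported here. The comparison and the lists were chosen with earlier results of these data known. Positions, lengths, GC content and overlaps came from GENCODE release 29, which held 23899 of 26475 symbols. Alternatives were other scaling factors, filters and thresholds, DESeq2, a fit of only the groups compared, a replicate block, removal of the trend with length and GC (4 spline degrees of freedom for each), removal of ribosomal RNA genes, and each library left out in turn. The design text calls the samples biological replicates, and no pair of libraries agreed within sampling noise.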

Additional observations from a re-analysis of the deposited data

How the results depend on the processing

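With each library left out in turn, 1051 to 1564 genes were upregulated and 1472 to 1879 downregulated at 10 µM against DMSO, and 118 to 320 were higher and 258 to 572 lower at 10 µM than at 5 µM. The lowest dose counts came without 5 µM replicates 1, 2 or 3 (118, 121 and 119 higher, 272, 258 and 270.0 lower), and without DMSO replicate 2 there were 155 higher. With no fold limit 2687 genes were upregulated and 2947 downregulated, and testing against 1.5-fold itself called 424 and 689. A fit of only the groups compared called 101 genes higher and 165 lower at 10 µM than at 5 µM, and DESeq2 called 418 higher. The deviations of same-numbered DMSO and 10 µM libraries from their group means correlated at 0.0312, 0.0171 and 0.00186, and those of the other pairs at -0.0306 to 0.0236. Replicate 1 enters all 10 µM deviations through the mean, and the 5 µM libraries were not compared. Whether same-numbered libraries were handled together was therefore not settled. The replicate block gave 1269 up and 1736 down, with 5 of the 245 genes followed losing their call. Removing the trend with length and GC content gave 1544 up and 1463 down. Of the 245 genes, 31 lost and 3 gained their call without 10 µM replicate 1, and 23 lost and 5 gained it with the trend removed. Signs turned for MT2A (0.18 with all libraries, -0.080 with the trend removed, and -0.050 to 0.31 with each library left out) and SOX10 (-0.091, and 0.043 with the trend removed), neither called. The cause of these differences was not tested.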

Other observations

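Several genes outside the lists, chosen after their values were seen, moved by more than 2-fold. The cytochrome genes CYP1A1 and CYP1B1, which are classic targets of the aryl hydrocarbon receptor, rose from 3.30, 2.39 and 3.50 CPM to 20.4, 18.03 and 16.6 CPM and from 0.785, 1.44 and 1.06 CPM to 6.73, 8.09 and 11.9 CPM, with log2 fold changes of 2.58 ± 0.18 and 3.02 ± 0.31 (edgeR quasi-likelihood adjusted p = 5.82e-06 and 6.75e-05). Of the other targets of this receptor looked at, TIPARP (0.53) and AHRR (-0.50) were not called, though TIPARP was without 10 µM replicate 1 (0.64). Of the 6 genes tested for secreted proteins that bind insulin-like growth factors, IGFBP2, IGFBP4 and IGFBP6 were not called, and 2 fell beside IGFBP5, with IGFBP3 going from 379, 379 and 389 CPM to 95.4, 79.8 and 69.7 CPM (-2.23) and IGFBP7 from 65.6, 62.8 and 62.6 CPM to 37.0, 26.1 and 21.7 CPM (-1.17). The EGF receptor ligand genes AREG and HBEGF rose (1.97 and 1.23), with AREG at 94.4, 70.9 and 67.7 CPM against 19.1, 20.5 and 19.9 CPM in DMSO. KITLG, the ligand of the receptor KIT, rose from 2.64, 2.55 and 1.77 CPM to 10.9, 10.5 and 12.2 CPM (2.27), and the Wnt inhibitor genes DKK1 and SFRP1 went in opposite directions (1.72 and -1.13).

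Among other falls, NR2F1, a neural crest nuclear receptor gene, went from 85.7, 83.9 and 85.3 CPM to 14.8, 16.9 and 15.6 CPM (-2.43), STRA6, a receptor for vitamin A transport, from 165, 162 and 169 CPM to 29.4, 29.8 and 27.5 CPM (-2.51), and IL17RD, a feedback inhibitor of growth factor signalling, from 58.6, 60.5 and 57.6 CPM to 6.26, 8.56 and 7.09 CPM (-3.01). The melanoma surface proteoglycan gene CSPG4 fell (-1.62), the connexin gene GJA5 (-3.07), the complement gene C3 (-1.91) and the cytidine deaminase gene APOBEC3G (-2.004). All of these genes stood below every control in all 3 treated libraries. Of the long non-coding RNAs, UCA1 rose from 116, 115 and 114 CPM to 854, 786 and 677 CPM (2.75), NEAT1 (1.05), the scaffold of paraspeckles, rose too, and MIR210HG, the host gene of a hypoxia-induced miRNA, fell (-2.40, or -3.09 without 10 µM replicate 1). MALAT1, a nuclear RNA, was at 2837, 904 and 977 CPM at 10 µM and 567, 494 and 493 CPM in DMSO, and its log2 fold change was 1.60 with all libraries and 0.86 without 10 µM replicate 1.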
